A study of Marchantia polymorpha subsp. ruderalis with 24 samples.

Results

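Of 20574 genes counted in the liverwort Marchantia polymorpha (young thallus), 48 had their highest RNA level 30 h after a move to constant light and again 54 h after it, one day later. A gene was taken in when its mean over the 24 libraries was 5 CPM or more (CPM, the gene's count over the total of its library, times 1000000), and when its mean over 3 replicates was highest at 30 h among 24, 30, 36 and 42 h (day 1) and at 54 h among 48, 54, 60 and 66 h (day 2). In each day the highest of the 4 means also had to be 1.5 times the lowest or more, and the lowest replicate of the highest time had to lie above the highest replicate of the lowest time. The genes MpPRR, MpBBX1 and MpLOX14 and all genes of the V chromosome, the male sex chromosome, were left out. The 48 genes were thus selected on their measured levels within each day, and their daily shape is given below as a description, without a test. The choice did not compare one day with the other, and differences between the days were tested. The times compared were still bounded within their own day by the choice, so that p-values between single times are not fully free of it, as given below.

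All plants were the male wild-type accession Takaragaike-1 (Tak-1), a standard laboratory strain, and no mutant or treated plants are compared here. They grew from gemmae, the clonal buds of the thallus, on agar under 12 h of light and 12 h of dark at 20 °C before constant light began, and the groups differ only in the time since then. Each of the 8 times from 24 to 66 h, spaced 6 h apart, has 3 libraries. The labels give the tissue as young thallus, while the RNA protocol speaks of frozen gemmae; neither says how many plants went into a library, whether replicates were separate cultures or at which hour of the light and dark cycle the plants were moved. The p-values thus measure the spread between these libraries, which may be technical, and phases are hours since the move.

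A circadian clock is a loop of transcription factors that repress one another in turn and that goes on cycling when light no longer changes. Through these factors it raises and lowers the RNA of many output genes once a day, each group of outputs at its own hour. Land plants share much of this machinery, and the pseudo-response regulators, RVE-type MYB factors and evening complex known from Arabidopsis have counterparts in Marchantia. The series' title names DE-ETIOLATED1, a repressor of light responses that acts with chromatin and protein-degradation factors in Arabidopsis.

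Library totals ran from 14929708 to 59194999 counts, and a member received 27 counts or more in every library, with a median of 1214. The gene MpVg01240 took over 4% of the counts in replicate 3 of 24, 30 and 66 h and 0.301 to 2.39% in the others; the median level of the members, relative to each gene's own mean, was 1.0994, 1.37 and 0.682 in these 3 libraries against 1.09 and 1.14, 1.43 and 1.45, and 0.617 and 0.643 in the others of the same times. Without these 3 libraries the same conditions gave 59 genes, with 45 of the 48 members among them. MpRBCS, a small subunit of Rubisco and so a marker of photosynthetic tissue, stood at 129 to 333 CPM. Of 2 genes listed as sperm markers, the protamine gene MpPRM was at 0 in 19 libraries and reached 0.144 CPM in the others, while MpCEN1 stood at 47.1 to 80.4 CPM in all 24. Of 2 gemma cup markers, MpGCAM1 ranged from 1.64 to 26.4 CPM and MpKAR from 44.8 to 69.0, and their part in the results was not tested. In whole tissue, fewer cells of a type cannot be told apart from less RNA per cell.

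The members shared a shape with a high at 30 h, a low at 42 h, a second high at 54 h and a second low at 66 h. Each gene's level was divided by its own mean over the 24 libraries. The median member at 24, 30, 36 and 42 h then had levels of 1.11, 1.42, 0.800 and 0.599, as the mean of the 3 library medians. At 48, 54, 60 and 66 h the levels were 0.969, 1.27, 1.03 and 0.648. The lowest time of day 1 was 42 h in 41 members, 36 h in 6 and 24 h in 1. On day 2 it was 66 h in 46 members, 48 h in 1 and 60 h in 1. In 39 members both lows were at 42 and 66 h. In 43 members the 6 libraries of 30 and 54 h all lay above the 6 of 42 and 66 h, which was so for 2.68% of the 10647 genes at 5 CPM or more; since the choice of members used these levels, nothing is read from that. The exceptions were MpNBS-LRR16, Mp5g23110, Mp7g06480, Mp1g17070 and Mp3g10010.

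**Figure D1:**
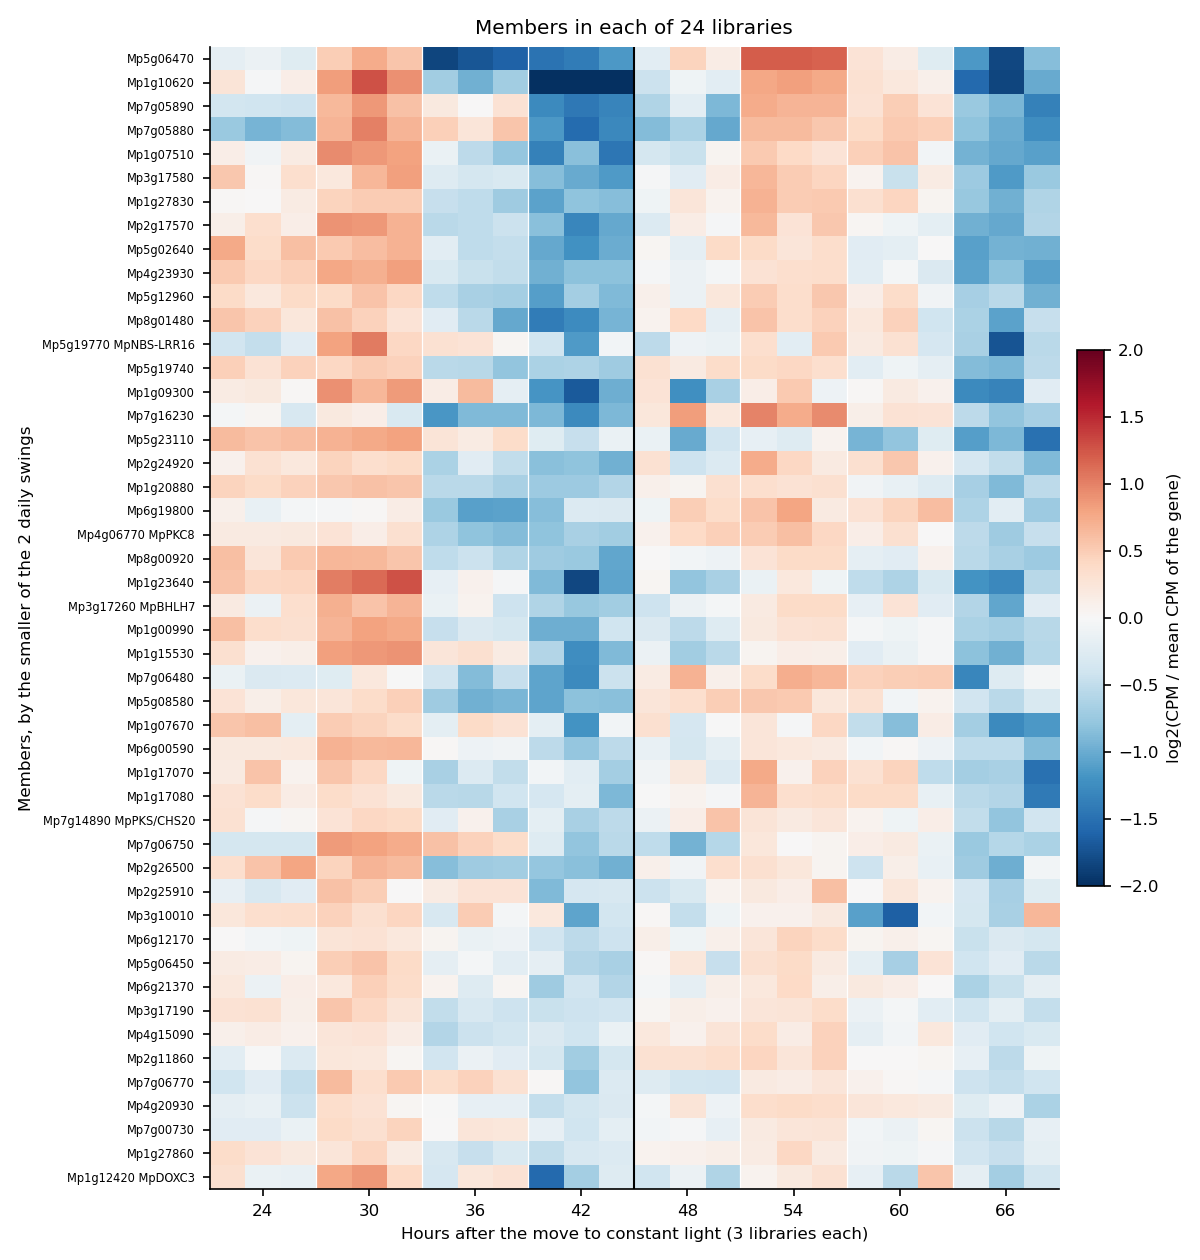
Colour gives log2 of the CPM over the gene's mean CPM for 48 members (rows, ordered by the smaller of the swings of the 2 days) in 24 libraries (columns, 3 for each of 8 times in hours after the move), with colours held at -2 and 2 for values beyond them. The columns of 30 and 54 h are red in nearly all rows and those of 42 and 66 h blue, and the columns of 24 h are redder than those of 36 h in most rows.

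Of the 10647 genes, 1279 had their highest mean at 30 h on day 1 and 1487 at 54 h on day 2, and 359 had both. A swing of 1.5 or more in both days, the swing being the highest over the lowest time mean of a day, held for 53 of those, and 48 also had non-overlapping replicates. The 5 genes lost at that last condition were MpPOD109, Mp7g11420, Mp8g00400, Mp2g18290 and Mp6g16280. By the same conditions 185 genes peaked at 24 and 48 h, 152 at 36 and 60 h and 71 at 42 and 66 h. Genes with both peaks at 30 and 54 h are thus the smallest of the 4 groups, at 0.451% of the genes at 5 CPM or more.

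Swings ran from 1.52 to 10.9 on day 1, with a median of 2.37, and from 1.51 to 5.38 on day 2, with a median of 2.02. The swing was smaller on day 2 in 34 members and larger in 14. It was 2 or more in both days in 20 members, 3 or more in 4 and under 2 in both in 13. The members just inside the limit were MpDOXC3 with 1.51, Mp1g27860 with 1.51 and Mp7g00730 with 1.52 as the smaller of their swings. Just outside were Mp7g16580, Mp2g00040 and Mp8g04290, with 1.497, 1.49 and 1.48. Mean levels ran from 5.80 to 476 CPM, and the spread of replicates, as the median over the times of SD over mean, from 4.52 to 23.4%.

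**Figure D2:**
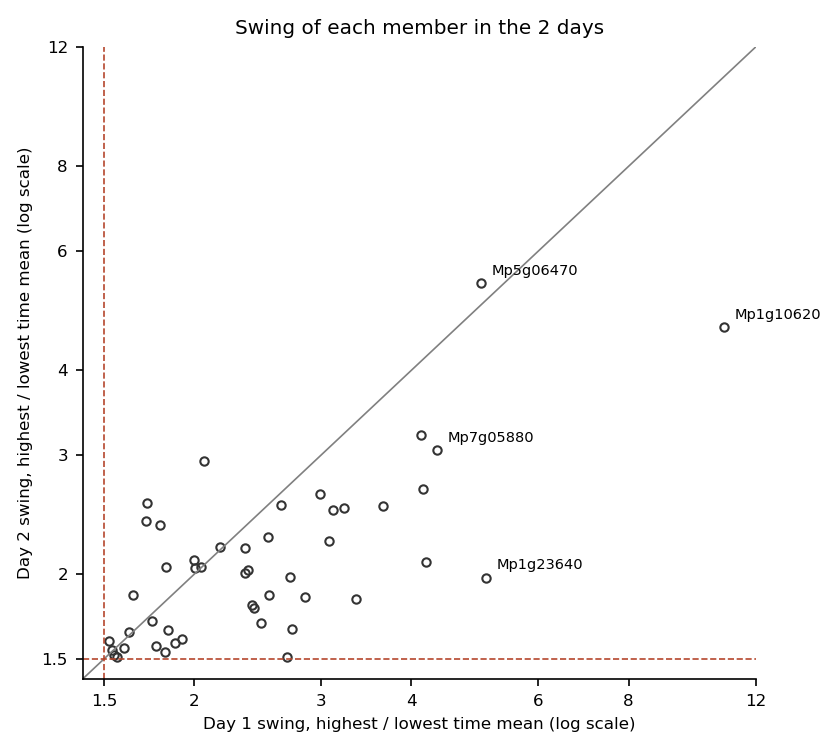
Each circle is 1 of 48 members, with its day 1 swing (highest over lowest time mean of 24 to 42 h) on the x axis and its day 2 swing (48 to 66 h) on the y axis, both on log scales; dashed lines mark the limit of 1.5 that chose the members and the grey line equal swings. Most circles, 34 of 48, lie below the grey line, and Mp1g10620 lies farthest to the right, at 10.9 on day 1 and 4.63 on day 2.

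Mp5g06470 had the widest swing when the smaller day is taken, 5.00 on day 1 and 5.38 on day 2. It stood at 14.5, 15.2 and 13.9 CPM at 24 h, 23.2, 27.6 and 24.3 at 30 h, 4.61, 5.03 and 5.38 at 36 h and 5.95, 6.28 and 7.47 at 42 h. A day later it stood at 14.2, 22.5 and 18.3 at 48 h, 38.2, 38.4 and 37.6 at 54 h, 19.9, 18.3 and 13.97 at 60 h and 7.43, 4.69 and 9.105 at 66 h. The libraries of 30 and 54 h were the high ones in their days with no overlap with any other time of the same day, and day 1 was lowest at 36 h, not at 42 h. The reference table gives this gene no symbol, as for 43 of the 48 members, and no function is given here to such genes.

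Mp1g10620 had the widest swing of day 1. Its levels were 301, 247 and 278 CPM at 24 h, 452, 611 and 477 at 30 h, 155, 129 and 156 at 36 h and 37.5, 54.2 and 50.2 at 42 h. On the second day they were 188, 237 and 218 at 48 h, 433, 445 and 427 at 54 h, 311, 292 and 271 at 60 h and 85.9, 70.5 and 126 at 66 h. The 6 libraries of 30 and 54 h were the highest of all 24. Its low was less deep on day 2: the 3 libraries of 66 h all lay above the 3 of 42 h, a difference taken up below.

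Mp7g05880 and Mp7g05890 are neighbours and among the members with most counts. Mp7g05880 stood at 284, 249.7 and 261 CPM at 24 h, 764, 958 and 762 at 30 h, 664, 561 and 699.7 at 36 h and 215, 163 and 194 at 42 h. The second day gave 259.6, 308 and 233 at 48 h, 739, 738 and 691 at 54 h, 621, 683 and 659 at 60 h and 272, 238 and 201 at 66 h. Its levels 6 h after the peak stayed close to the peak, at 0.775 of the 30 h mean and 0.906 of the 54 h mean, while those 6 h before it were 0.3201 and 0.369. Mp7g05890 stood at 286, 279 and 277 CPM at 24 h, 577, 669.5 and 552 at 30 h, 421, 371 and 448 at 36 h and 152, 136 and 148 at 42 h. On day 2 it had 242, 318 and 198 at 48 h, 616, 591 and 589 at 54 h, 451, 519 and 448 at 60 h and 219, 196 and 144 at 66 h. It showed the same side of the peak as the higher one, at 0.6895 and 0.789 after the peak against 0.468 and 0.422 before it.

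Mp1g07510 had a broader top on day 2. It stood at 31.99, 27.8 and 32.97 CPM at 24 h, 56.4, 53.4 and 50.97 at 30 h, 26.6, 20.3 and 17.1 at 36 h and 11.5, 16.4 and 10.7 at 42 h. The next day gave 23.04, 21.5 and 30.3 at 48 h, 41.9, 38.6 and 35.5 at 54 h, 40.9, 43.4 and 28.1 at 60 h and 15.3, 14.3 and 13.8 at 66 h. On day 1 the 30 h libraries lay above all others of the day, whereas on day 2 those of 60 h overlapped those of 54 h. The other members with the 12 widest swings, Mp3g17580, Mp1g27830, Mp2g17570, Mp5g02640, Mp4g23930, Mp5g12960 and Mp8g01480, had swings of 2.53 to 3.66 on day 1 and 2.24 to 2.63 on day 2.

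**Figure D3:**
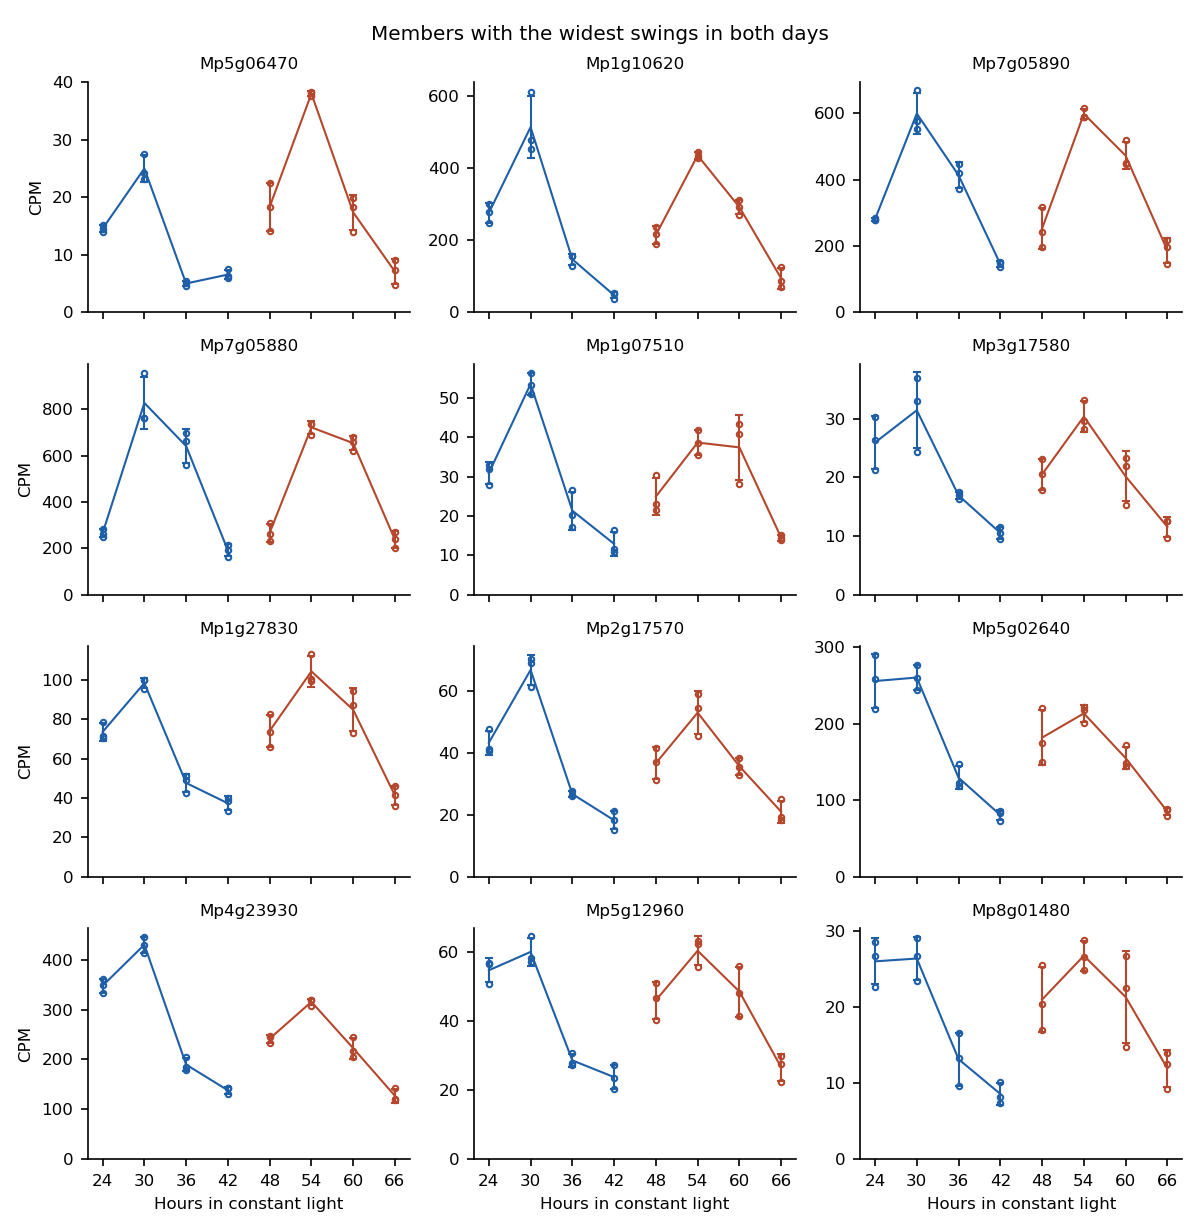
CPM against hours in constant light for the 12 members with the widest smaller-day swing; circles are libraries, lines join the means of 3 libraries and bars are SD, with day 1 in blue and day 2 in red, and every y axis starts at 0. Each panel is highest at 30 and 54 h, and in Mp7g05880 and Mp1g07510 the mean of 60 h is close to that of 54 h, at 0.906 and 0.968 of it.

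Only 5 members carry a symbol in the reference table, a share of 10.4%, against 19.2% of the genes at 5 CPM or more. MpBHLH7 (Mp3g17260) belongs to the basic helix-loop-helix transcription factors, which bind DNA as dimers. It stood at 12.5, 10.1 and 13.9 CPM at 24 h, 18.1, 16.4 and 17.7 at 30 h, 10.1, 11.6 and 8.29 at 36 h and 7.24, 6.502 and 6.801 at 42 h. On day 2 it had 8.28, 10.1 and 10.8 at 48 h, 12.5, 14.4 and 14.4 at 54 h, 9.798, 13.3 and 9.44 at 60 h and 7.35, 5.36 and 9.43 at 66 h. Its libraries at 30 and 54 h lay above those at 42 and 66 h without overlap.

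MpPKS/CHS20 (Mp7g14890) belongs to the polyketide synthase family that holds chalcone synthase, the enzyme of the first step of flavonoid synthesis. Levels of MpPKS/CHS20 were 22.7, 18.2 and 18.9 CPM at 24 h, 22.1, 24.6 and 24.1 at 30 h, 15.7, 19.4 and 11.7 at 36 h and 16.1, 11.7 and 12.8 at 42 h. The second day gave 16.9, 20.2 and 27.1 at 48 h, 21.9, 20.8 and 21.6 at 54 h, 19.4, 17.2 and 20.1 at 60 h and 12.99, 10.6 and 14.1 at 66 h. Its peak of day 2 rests on a small margin, since the mean of 48 h was 0.999 of that of 54 h and replicate 3 of 48 h was the highest library of the day.

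MpNBS-LRR16 (Mp5g19770) belongs to the nucleotide-binding leucine-rich repeat proteins, known in plants as receptors of the immune system inside the cell. Levels of MpNBS-LRR16 were 4.59, 4.28 and 5.09 CPM at 24 h, 10.5, 12.2 and 7.97 at 30 h, 7.39, 7.24 and 6.13 at 36 h and 4.53, 2.73 and 5.78 at 42 h. The second day gave 4.14, 5.55 and 5.43 at 48 h, 7.54, 5.15 and 8.62 at 54 h, 6.77, 7.41 and 4.72 at 60 h and 3.82, 1.81 and 4.12 at 66 h. The 30 h libraries were the highest of day 1, and on day 2 those of 54 h overlapped those of 48 and 60 h. Replicates of the same time spread from 5.15 to 8.62 CPM at 54 h.

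MpPKC8 (Mp4g06770) was nearly as high at 24 h as at 30 h. Its levels were 42.3, 42.4 and 43.1 CPM at 24 h, 45.4, 41.01 and 46.996 at 30 h, 24.5, 21.6 and 20.6 at 36 h and 21.4, 23.8 and 23.2 at 42 h. Day 2 gave 40.1, 49.7 and 52.1 at 48 h, 53.4, 56.9 and 50.3 at 54 h, 41.3, 46.9 and 37.9 at 60 h and 26.2, 22.9 and 27.3 at 66 h. Its low of day 1 was at 36 h, with 42 h close to it. MpDOXC3 (Mp1g12420), named for a class of 2-oxoglutarate-dependent dioxygenases, oxidising enzymes of which many act in specialised metabolism, was the member with the lowest mean level. Its levels were 7.21, 5.28 and 5.203 CPM at 24 h, 9.89, 10.6 and 7.61 at 30 h, 4.61, 6.81 and 7.05 at 36 h and 1.98, 3.62 and 4.84 at 42 h. The second day gave 4.40, 5.34 and 3.81 at 48 h, 6.11, 6.65 and 7.19 at 54 h, 5.197, 3.99 and 8.52 at 60 h and 5.102, 3.62 and 4.52 at 66 h, so that 60 h overlapped 54 h.

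MpBBX1, a B-box zinc finger gene that was left out by name, met every other condition. It stood at 42.9 ± 2.77, 88.3 ± 8.74, 32.7 ± 3.51 and 9.82 ± 1.11 CPM (SD, n = 3) at 24, 30, 36 and 42 h, a swing of 8.99, and had a swing of 3.82 on day 2. Of the other genes left out, the clock gene MpPRR peaked at 30 h and then at 60 h, and the lipoxygenase gene MpLOX14 at 36 h and then at 66 h.

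The 2 sides of the peak were unlike on day 1 and closer to each other on day 2. The mean of 24 h lay above that of 36 h in 37 members and below it in 11, whereas 48 h lay above 60 h in 22 and below it in 26. The 24 h level had a median of 0.817 of the 30 h level and the 36 h level 0.582 of it. On day 2 the corresponding medians were 0.761 at 48 h and 0.799 at 60 h. In 15 members the order turned from 24 h above 36 h to 60 h above 48 h, in 22 the earlier side was higher on both days and in 11 the later side was, among them Mp7g05880 and Mp7g05890. No member turned the other way.

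The peak itself was often broad. Compared with 30 h, 24 h reached 90% or more of the level in 16 members and 36 h in 2. On day 2, 48 h reached 90% of the 54 h level in 7 members and 60 h in 9. The 3 libraries of 30 h all lay above those of 24 h in 28 members and above those of 36 h in 44. The libraries of 54 h all lay above those of 48 h in 27 members and above those of 60 h in 27. In the other members of each count the libraries overlapped, so that a peak at that time is not apart from its neighbour beyond the spread of replicates. The choice of members made 30 and 54 h the highest means of their days, and the share over all genes was not counted. The counts of this paragraph are thus a description only.

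Tests between the days used edgeR's quasi-likelihood test on the counts with 1 mean per time, on the 14414 genes that passed a filter on low counts, and p-values were adjusted over all of these by the Benjamini-Hochberg method with a limit of 0.05. All 48 members passed the filter. The contrasts below share libraries with one another and are not independent. Taken over all 4 times, 10 members were higher on day 2 and 9 lower, which are 20.8% and 18.8% of the members; of all tested genes 18.3% were higher and 16.3% lower. The median difference was log2 0.02 in the members and 0.01 in all genes. The members' mean level thus moved between the days about as often as that of any gene, and in both directions. Without the 3 libraries rich in MpVg01240, 12 were higher and 8 lower.

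Mp7g16230 rose most from day 1 to day 2. It stood at 87.97, 92.7 and 71.98 CPM at 24 h, 103, 99.6 and 73.5 at 30 h, 40.2, 48.8 and 49.01 at 36 h and 48.3, 37.3 and 48.3 at 42 h. On day 2 it had 106, 161 and 104 at 48 h, 180.2, 152 and 174 at 54 h, 98.3, 111 and 109 at 60 h and 63.1, 52.2 and 57.2 at 66 h. At each of the 4 times the 3 libraries of day 2 lay above the 3 of day 1, and the difference was log2 0.75 ± 0.09 (SE), edgeR adjusted p = 1.68e-06, which is 1.69-fold. Mp5g06470 rose by 1.64-fold (log2 0.72 ± 0.09 (SE), edgeR adjusted p = 3.99e-06). Mp7g06480 rose 1.58-fold (log2 0.66 ± 0.12 (SE), edgeR adjusted p = 0.000267). Its libraries of 48, 54 and 60 h each lay above those of the time a day earlier, and those of 66 h overlapped those of 42 h.

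Mp6g19800 rose 1.45-fold (log2 0.53 ± 0.10 (SE), edgeR adjusted p = 0.000341). Mp5g08580 rose 1.34-fold (log2 0.42 ± 0.05 (SE), edgeR adjusted p = 1.4e-06), with 60.3 ± 5.404 CPM (SD, n = 3) at 36 h but 118 ± 14.9 at 60 h, and 58.4 ± 4.97 at 42 h but 82.4 ± 6.49 at 66 h. Its libraries of 30 and 54 h overlapped, with means of 141 ± 10.97 and 148 ± 18.1. MpPKC8 was also called higher on day 2 (log2 0.38 ± 0.05 (SE), edgeR adjusted p = 2.49e-05), and the other 4 members with symbols were not called in either direction.

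Mp5g23110 fell most. Its levels were 26.4, 25.2 and 26.2 CPM at 24 h, 27.6, 28.8 and 29.9 at 30 h, 20.4, 19.2 and 22.1 at 36 h and 14.5, 12.3 and 15.5 at 42 h. Day 2 gave 15.5, 8.51 and 13.01 at 48 h, 15.2, 14.3 and 17.9 at 54 h, 8.93, 9.84 and 14.5 at 60 h and 7.97, 9.11 and 6.07 at 66 h. At each of the 4 times the libraries of day 1 lay above those a day later with no overlap, and the difference was log2 -0.93 ± 0.10 (SE), edgeR adjusted p = 7.02e-07, a fall of 1.90-fold. Its swing was 2.04 on day 1 and 2.05 on day 2, so that it kept the width of its swing at a lower level.

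Mp1g23640 fell by 1.48-fold (log2 -0.57 ± 0.10 (SE), edgeR adjusted p = 0.000176), and here the swing was smaller on day 2. It stood at 77.6, 70.2 and 70.98 CPM at 24 h, 106, 116 and 126 at 30 h, 46.96, 55.6 and 51.7 at 36 h and 28.5, 14.9 and 25.2 at 42 h. The second day gave 53.7, 30.5 and 33.3 at 48 h, 47.6, 60.9 and 49.6 at 54 h, 36.8, 34.1 and 42.5 at 60 h and 22.9, 21.4 and 35.7 at 66 h. The libraries of 24 and 30 h lay above those of 48 and 54 h, and the lows at 42 and 66 h overlapped. The next largest falls were those of Mp1g07670 (log2 -0.42 ± 0.14 (SE), edgeR adjusted p = 0.0231), Mp1g15530 (log2 -0.41 ± 0.07 (SE), edgeR adjusted p = 9.83e-05) and Mp7g06750 (log2 -0.39 ± 0.07 (SE), edgeR adjusted p = 0.000141). The call of Mp1g07670 was lost without replicate 3 of 42 h, at an edgeR adjusted p of 0.0508.

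**Figure D4:**
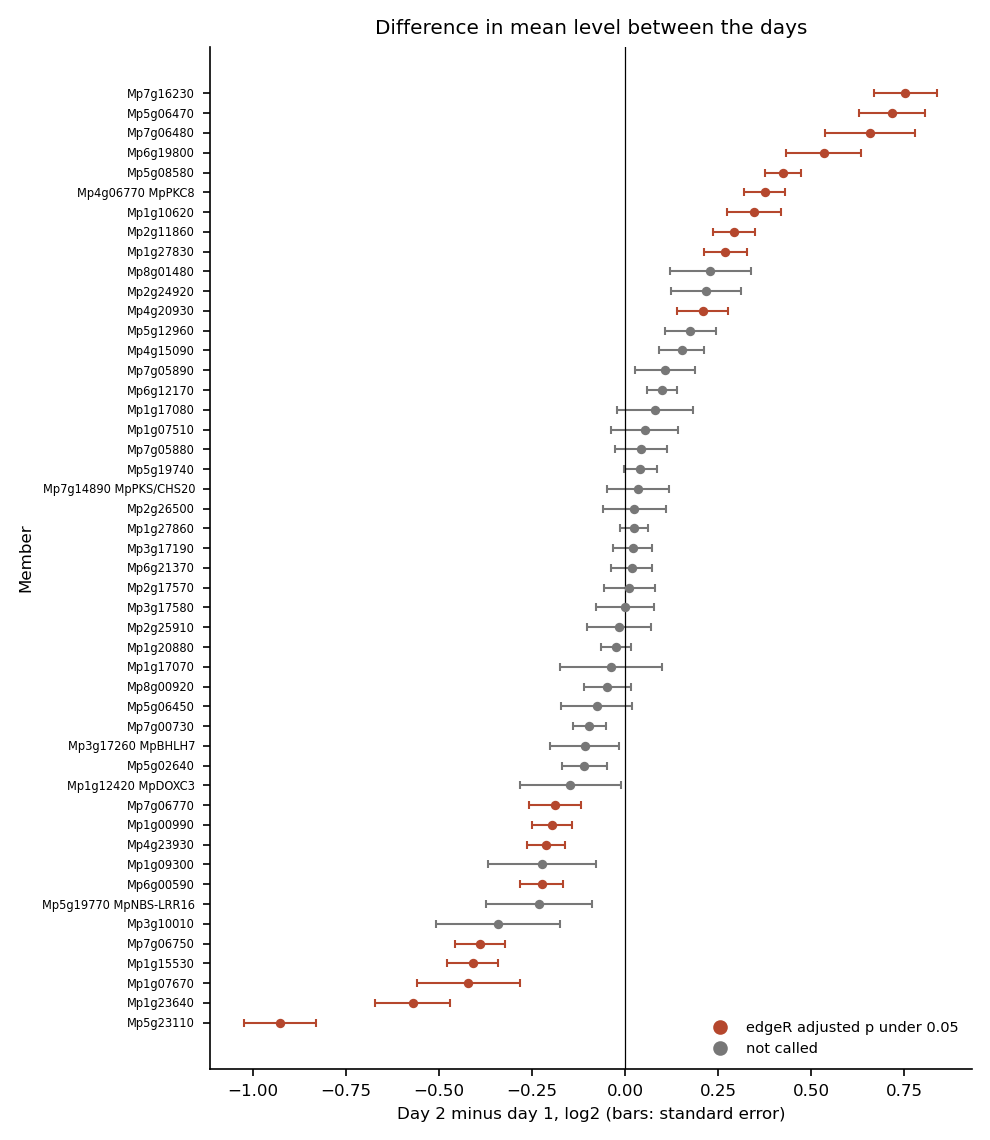
Difference in mean level between day 2 (48 to 66 h) and day 1 (24 to 42 h) on the log2 scale for each of 48 members, with bars of 1 standard error from the edgeR fit; red points have an adjusted p under 0.05. Of the red points 10 lie right of 0, up to 0.75 for Mp7g16230, and 9 left of it, down to -0.93 for Mp5g23110.

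The 4 pairs of times a day apart gave different counts. The choice of members had set 30 and 54 h as the peaks and, in most members, 42 and 66 h as the lows. It had bounded the other times within their days, so the p-values of these pairs are not fully free of the choice. At 48 h against 24 h, 2 members were higher and 11 lower, against 8.26% and 7.22% of all tested genes, and the median over the members was log2 -0.30. At 54 h against 30 h, the 2 peaks, 2 members were higher and 7 lower, against 4.07% and 4.48% of all genes, with a median of log2 -0.15. At 60 h against 36 h, 22 members were higher and 1 lower, against 4.83% and 3.66%, with a median of log2 0.34. At 66 h against 42 h, 2 members were higher and 1 lower, against 1.01% and 1.78%, with a median of log2 0.12. The median over all genes was between log2 -0.01 and 0.02 in each of the 4. Of the 185 genes selected at 24 and 48 h, 4 were higher and 54 lower at 48 h against 24 h. At 60 h against 36 h, 53 of those 185 were higher and 7 lower, so neither change was particular to the members. The genes selected at 36 and 60 h and at 42 and 66 h went the other way at 48 h against 24 h, with 88 of 152 and 51 of 71 higher.

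At the peaks, Mp7g16230 (log2 0.87 ± 0.17 (SE), edgeR adjusted p = 0.00397) and Mp5g06470 (log2 0.60 ± 0.17 (SE), edgeR adjusted p = 0.0287) were the 2 members higher at 54 h than at 30 h. The call of Mp5g06470 was lost without the 3 libraries rich in MpVg01240 (edgeR adjusted p = 0.108) and on leaving out any 1 library of 30 or 54 h (0.0586 to 0.115). The 7 lower ones were Mp1g23640, Mp5g23110, Mp1g15530, Mp7g06750, Mp1g00990, Mp4g23930 and Mp6g00590, from log2 -1.15 to -0.46. Mp4g23930 stood at 361, 334 and 349 CPM at 24 h, 431, 414 and 446 at 30 h, 204, 186 and 179 at 36 h and 129.9, 142 and 142 at 42 h. On the second day it had 246, 233 and 246 at 48 h, 308, 319 and 320.0 at 54 h, 217, 246 and 205 at 60 h and 119.7, 143 and 118 at 66 h. Its libraries at 48 and 54 h were all below those at 24 and 30 h, while those at 60 h were all above those at 36 h, a difference that was not called (log2 0.29 ± 0.10 (SE), edgeR adjusted p = 0.0792).

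At 60 h against 36 h the call was most common. Of the 22 members that rose there, 5 had their day 1 low at 36 h, a time the choice of members then used, and the other 17 came from 42 members with the low elsewhere. Mp5g08580 rose to 2.03-fold (log2 1.02 ± 0.10 (SE), edgeR adjusted p = 1.62e-06), Mp1g27830 to 1.86-fold (log2 0.89 ± 0.12 (SE), edgeR adjusted p = 8.32e-05) and Mp1g10620 to 2.07-fold (log2 1.05 ± 0.15 (SE), edgeR adjusted p = 0.000145). The 1 member that fell was Mp5g23110 (log2 -0.84 ± 0.19 (SE), edgeR adjusted p = 0.0112), a call lost without replicate 1 or replicate 2 of 60 h (edgeR adjusted p = 0.0722 and 0.0609). Without replicate 2 of 36 h the count was 13 higher and 1 lower, and without replicate 2 of 60 h it was 12 higher and 0 lower.

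At 48 h against 24 h the 2 members that rose were Mp7g16230 (log2 0.51 ± 0.17 (SE), edgeR adjusted p = 0.0458) and Mp2g11860 (log2 0.43 ± 0.11 (SE), edgeR adjusted p = 0.0129). Without the 3 libraries rich in MpVg01240 neither was called (edgeR adjusted p = 0.137 and 0.0570), and 10 were lower. The call of Mp7g16230 was lost in 15 of 31 alternative settings, up to an edgeR adjusted p of 0.373 without replicate 2 of 48 h, and that of Mp2g11860 also without replicate 1 or 3 of 24 h. The 11 that fell ran from log2 -0.25 in Mp1g27860 to -1.13 in Mp5g23110. At the lows, Mp1g10620 (log2 0.99 ± 0.15 (SE), edgeR adjusted p = 0.000807) and Mp5g08580 (log2 0.50 ± 0.10 (SE), edgeR adjusted p = 0.00484) rose and Mp5g23110 fell (log2 -0.86 ± 0.20 (SE), edgeR adjusted p = 0.0182). That last call was lost without the 3 libraries rich in MpVg01240 (edgeR adjusted p = 0.0957) and without replicate 1 or 3 of 42 h or replicate 3 of 66 h (0.0680 to 0.0828). In all, 30 members were called in 1 or more of the 4 pairs and 18 in none. Mp1g20880, Mp8g00920, Mp1g00990, Mp2g26500 and Mp1g27860 both fell at 48 h and rose at 60 h, and each of these 5 lost a call in at least 1 alternative setting. The share of all tested genes called in any of the 4 pairs, or in both of these directions, was not counted. Nothing is therefore read from the counts of 30, 18 and 5 members.

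How the later side of the peak changed against the earlier one was computed as the difference of 60 minus 48 h from 36 minus 24 h on the log2 scale. This contrast was added after the values had been seen. The choice of members had bounded all 4 of these times, since each had to lie below the peak of its day, but it did not compare 24 with 36 h or 48 with 60 h. The p-values of this contrast are thus not free of the choice, and its calls are given as a description of these genes. Only the 39 members with lows at 42 and 66 h were read, since in the other 9 one of these 4 times was also the low that set the swing. Of the 39, 15 were called higher and 0 lower, against 0.978% and 0.826% of all tested genes in the same fit. The median over the 39 was log2 0.58, against -0.01 over all genes, and 34 were above 0. In all 15 the 24 h mean had been above the 36 h mean on day 1, and on day 2 the order was turned in 6 and kept in 9. Genes selected at 24 and 48 h, whatever the time of their low, had 38 of 185 higher and 0 lower (median log2 0.48). Counted in that way, all 48 members had 18 higher and 0 lower. The genes selected at 36 and 60 h and at 42 and 66 h had 0 higher, with 13 of 152 and 8 of 71 lower. The shift was thus shared with the genes selected at 24 and 48 h.

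Among the 39, Mp1g10620 had the largest such difference (log2 1.46 ± 0.20 (SE), edgeR adjusted p = 0.00036). Its mean was 275 ± 26.98 CPM (SD, n = 3) at 24 h and 147 ± 15.3 at 36 h, but 214 ± 24.6 at 48 h and 292 ± 20.2 at 60 h. Neither pair of times overlapped, and their order was opposite on the 2 days. Mp1g00990 showed the same turn. It stood at 90.9, 76.2 and 74.4 CPM at 24 h, 95.6, 104 and 101 at 30 h, 43.2, 49.1 and 46.6 at 36 h and 30.3, 30.2 and 45.1 at 42 h. On the second day it had 49.1, 41.7 and 49.8 at 48 h, 68.6, 73.2 and 74.1 at 54 h, 58.4, 56.2 and 58.8 at 60 h and 38.5, 37.4 and 40.9 at 66 h, a difference of log2 1.21 ± 0.15 (SE), edgeR adjusted p = 0.000129. Mp1g20880 kept the earlier side higher on both days, at 207 ± 5.17 against 103 ± 4.09 CPM and then 172 ± 16.7 against 138 ± 8.86, with a narrower gap on day 2 (log2 0.80 ± 0.11 (SE), edgeR adjusted p = 0.000369).

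**Figure D5:**
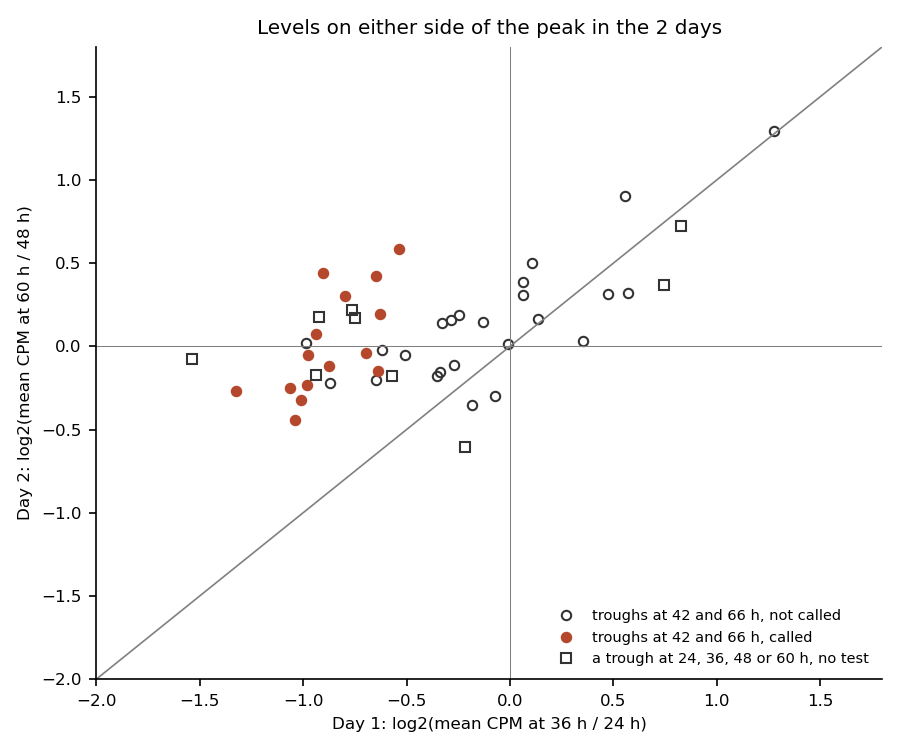
For each of 48 members, log2 of the mean CPM at 36 h over that at 24 h (x axis, day 1) and of that at 60 h over that at 48 h (y axis, day 2). The grey diagonal marks equal ratios and red points were called for the difference of the 2. Squares have a low at one of these times and are marked as no test, since their calls were not read. All 15 red points lie above the diagonal and left of 0 on the x axis, and 6 of them lie above 0 on the y axis.

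Some members lie side by side. By identifier order among genes with a mean of 1 CPM or more, 6 pairs of members were 3 steps or less apart, 3 of them adjacent. These pairs took in 12 members or 25% of them. The share was 17.3% of the 185 genes selected at 24 and 48 h, 9.21% of the 152 at 36 and 60 h and 12.7% of the 71 at 42 and 66 h. The groups differ in size and the share for genes in general was not counted, so nothing is read from these shares. Mp7g05880 and Mp7g05890 were next to each other in the files and in the reference assembly, and the ratio of the second to the first stayed within 0.634 and 1.12 over the 24 libraries. Mp1g17070 and Mp1g17080 were also adjacent in the files, at a ratio of 0.682 to 1.06, and both had their day 1 low at 36 h. Replicates of both were uneven together: at 66 h they stood at 42.99, 43.7 and 24.4 CPM and 39.2, 37.8 and 21.4 CPM in replicates 1, 2 and 3. How the counting treated strand is not given in the sources used here, so neighbours that overlap could share reads.

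The other pairs were less alike. Mp5g06450 and Mp5g06470 had a ratio that ran from 0.416 to 2.66, and Mp5g06450 stood at 17.5 ± 1.13 CPM at 30 h and 9.09 ± 1.67 at 42 h, a swing of 1.92, beside the swing of 5.00 of Mp5g06470. Mp5g19740 peaked beside MpNBS-LRR16, with Mp5g19750 between them, whose swing was 1.31 on day 1 and 1.0998 on day 2. Mp1g27830 and Mp1g27860 were parted by Mp1g27840 and Mp1g27850, with swings of 1.204 and 1.26 on day 1. Mp7g06750 and Mp7g06770 enclosed Mp7g06760, which was highest at 36 and 60 h, as were Mp7g06780 and Mp7g06790 on the other side of Mp7g06770. Of the other genes near this pair, Mp7g06720 was also highest at 30 and 54 h, with a day 1 swing of 1.35, Mp7g06730 at 36 and 54 h, Mp7g06740 at 42 and 54 h and Mp7g06850 at 36 and 66 h. By the chromosome number in their identifiers, 13 members were on chromosome 1, 8 each on 5 and 7, 5 on 2, 4 each on 3, 4 and 6, and 2 on 8.

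Members were also looked up in lists of genes by symbol. Of 25 lists, 24 had tested genes, 831 in all; 5 lists held 1 member each, the 5 genes with symbols, and 19 lists with 700 tested genes held none. Members were 48 of the 14414 tested genes, and at that share a list of this size can hold none. Nothing is therefore read from a list with or without a member, here or below. The lists for NBS-LRR, DOXC and PKC genes were added because members carry those symbols. Among 37 tested genes of phenylpropanoid and flavonoid synthesis 4 were higher and 5 lower on day 2, with a median of log2 0.01, beside the background of 18.3% and 16.3% above. Of 37 tested bHLH genes 14 were higher and 2 lower (median log2 0.14), of 21 NBS-LRR genes 4 and 2 (median log2 -0.04), of 28 DOXC genes 9 and 2 (median log2 0.05) and of 9 PKC genes 4 and 0 (median log2 0.28).

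The core clock list, which takes in all symbols of the 1R-MYB family, had 27 tested genes and no member, with 7 higher and 4 lower on day 2 (median log2 0.08). The light signalling list had 13 tested genes and no member, MpBBX1 being left out, with 6 higher and 1 lower (median log2 0.11). Both peaks at 30 and 54 h occurred in 359 of the 10647 genes at 5 CPM or more and, members included, in lists of several kinds. The list counts also needed 5 CPM but are given out of all tested genes of a list, at any CPM. They include MpBBX1, which the 359 leave out. Lists with none included the core clock (27 tested genes), MYB factors (38) and ABC transporters (92). Both peaks occurred in 4 of 119 class III peroxidases, 4 of 28 DOXC, 3 of 37 bHLH and 3 of 90 cytochrome P450 genes. Light signalling had 2 of 13, MpBBX1 among them, photoreceptors 1 of 4 and bZIP factors 1 of 13. Tetrapyrrole (chlorophyll) synthesis had 2 of 4 and the Calvin cycle 1 of 5. Those named next are of these last lists, with swings under 1.5, and nothing is read from their kind. The blue light receptor gene MpPHOT had swings of 1.27 and 1.35, MpSPA1, a partner of the COP1 ubiquitin ligase, 1.16 and 1.07, and the bZIP factor gene MpBZIP3 1.45 and 1.43. The chlorophyll synthesis genes MpGUN4 and MpCHLI1/2-like had 1.28 and 1.47, and 1.35 and 1.29, and the Calvin cycle aldolase gene MpFBA4 had 1.202 and 1.42.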

How the data were processed

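The authors deposited 1 table of whole-number counts per gene, not normalized, with 20574 genes and 24 columns, each mapped to 1 library by its name. Per the labels' protocols, mRNA was selected by its poly(A) tail from 100 ng of RNA and built into stranded TruSeq libraries. What aligned and counted the reads, to which build and with which strand setting, is not given in the sources used here. CPM are counts over the column total; the choice of members and all printed levels use them. Tests were run in R 4.3.3 with edgeR 4.0.16 (TMM factors 0.932 to 1.10, filterByExpr with a minimum count of 10, glmQLFit and glmQLFTest, Benjamini-Hochberg adjustment over 14414 genes; 6160 were set aside). All 24 libraries entered each fit. DESeq2 1.42.0 and limma 3.58.1 (voom) were alternatives, beside other scalings, no filter, a replicate block and leaving out each library. Of these fits, only the edgeR fit of the difference between the days was run on simulated counts. A day difference is a difference of mean log2 levels and can differ from that of mean CPM.

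RefSeq's gene list for assembly MpTak2_v7.1 gave the symbols through the digits of the identifier, which carries the suffix of another annotation version, so a renumbered gene would bear a wrong symbol; 17641 identifiers and 47 members had an entry. Positions in that assembly were used only to say which genes are next to each other. Promoter sequences were not used here. Named genes were the 12 with the widest smaller-day swing, those with a symbol, the 5 largest rises and falls between the days, the 3 on either side of the swing limit and members of lists. Mp4g23930, Mp1g00990, Mp1g20880, Mp2g11860 and the genes of neighbour pairs and counts were named after their values were seen, except where the rule also names them. The members and the lists were chosen with earlier results of these data known.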

Additional observations from a re-analysis of the deposited data

Results flagged for a closer look

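In 15 members the step from the earlier to the later side of the peak differed between the days. The contrast was 60 minus 48 h against 36 minus 24 h, log2, called at an edgeR adjusted p under 0.05. It was added after the values were seen and uses times that the choice of members had bounded, so its calls are a description. The largest were Mp1g10620 (1.46), Mp1g07510 (1.25), Mp1g00990 (1.21), Mp2g24920 (1.19), Mp2g26500 (1.19), Mp5g12960 (1.14) and Mp8g00920 (1.04). The others were Mp1g27830 (0.94), Mp5g08580 (0.92), Mp4g23930 (0.87), Mp5g02640 (0.86), Mp1g20880 (0.80), Mp2g17570 (0.77), Mp5g19740 (0.72) and Mp1g27860 (0.60). Of 31 alternative settings, the call of Mp2g17570 was lost in 18, that of Mp2g24920 in 5 and that of Mp1g27860 in 1, and the other 12 kept theirs. The 9 members with a low at 24, 36, 48 or 60 h were in the fit but were not read. Their differences ran from -0.30 in Mp3g10010 to 1.57 in Mp5g06470, and 3 of them passed the same limit.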

How the results depend on the processing

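The number of members, 48, was 43 to 55 with 1 library left out (43 when replicate 3 of 24 h was left out, 55 when replicate 3 of 66 h was); 26 members stayed in all 24 such runs and 42 to 48 stayed in any one. It was 77 with no minimum of CPM, all 48 among them, and 20 with a swing of 2 or more. CPM scaled by TMM factors gave 61 genes, with 47 of the 48 among them. Column totals without MpVg01240 gave 44, with 43 of the 48 among them. With 1 library left out, members higher on day 2 numbered 10 to 14 and lower ones 7 to 11, calls numbered 9 to 15 at 48 against 24 h, 7 to 10 at 54 against 30 h, 12 to 25 at 60 against 36 h and 2 to 3 at 66 against 42 h, and 13 to 17 for the added contrast. Under the other scalings, tools, filter and block and without the 3 libraries rich in MpVg01240 these counts stayed within 1.5 times the reported ones, and no called difference changed sign in any setting. The call between the days was lost for Mp7g06770 in 18 of 31 settings, for Mp1g07670 in 1 and for Mp4g20930 in 1, without replicate 2 of 48 h. Of 48 calls at the 4 pairs of times a day apart, 27 were kept in all 31 settings. No pairing of libraries by replicate number was seen. Same-numbered libraries of different times correlated at -0.501 to 0.449, with a mean of -0.004. Differently numbered ones correlated at -0.606 to 0.587, with a mean of 0.002, and 9 of 24 libraries were closest to their own number. These are not correlations of the printed levels, and the labels do not say how replicates were made. With the replicate block, 10 members were higher and 9 lower on day 2, 9 were called at 54 against 30 h, 12 at 48 against 24 h, 23 at 60 against 36 h, 3 at 66 against 42 h and 14 for the added contrast. The planned count of promoter motifs was not run. Sampling every 6 h cannot place a peak between times, and 3 libraries a time limit what small swings show.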
